A study of Mus musculus with 4 samples.

Results

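The IL-1 family ligands and receptors were followed through 4 single-cell RNA libraries of mouse lung tumours. The 10 genes were taken by symbol from the 32289 features of the deposited tables: the ligands Il1a, Il1b, Il18 and Il33, the receptor antagonist Il1rn, the signalling receptor chains Il1r1, Il1rap, Il18r1 and Il1rl1, and the decoy receptor Il1r2. All 10 were found, and each was counted as UMIs per cell. Tumours were started with an adenovirus in which a mouse surfactant protein C promoter (mSPC) drives FlpO, so recombination starts in cells that use that promoter, chiefly type 2 alveolar cells. The mice carried p53frt, Rosa-FSF-CreERT2 and Hnf4aflox in every group, so Flp removes p53 and switches on a tamoxifen-dependent Cre, and tamoxifen is meant to delete Hnf4a. Tamoxifen or vehicle was given 10 weeks after the virus and cells were collected 2 weeks later. 1 fraction of the dissociated cells was set aside undepleted, and the other went over beads against CD45 (immune cells) and CD31 (endothelial cells). This gave vehicle before, vehicle after, tamoxifen before and tamoxifen after depletion, with 1 library each. Neither the number of animals or tumours in a suspension nor the animals' age is stated in the labels.

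The libraries held from 92644997 to 144994771 UMIs, and from 6105 to 7355 cells were kept in each, with medians from 9312 to 17702 UMIs per cell. Any 2 libraries shared from 10 to 18 cell barcodes. Cells were grouped without using the 10 genes and named from marker genes, so each name means "like" that cell type. With 1 library per group no test between groups was possible, and no p-value is given. Each interval is an exact 95% interval that covers counting error only, not the spread between animals. Hnf4a went against the treatment label: in epithelial-like cells it stood at 57.3 and 55.3 CPM (UMIs per 1000000 UMIs of the class) with vehicle before and after depletion, and at 87.6 and 83.2 CPM with tamoxifen. Counts at the 3′ end do not show which exons a transcript carries, and the deleted part is not given in the sources used here. Directions below therefore refer to the libraries as labelled.

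IL-1α and IL-1β both signal through the receptor chain encoded by Il1r1 together with the accessory chain Il1rap. The antagonist encoded by Il1rn occupies that receptor without signalling, and the protein of Il1r2 binds IL-1 without passing a signal on. IL-18 uses Il18r1 with Il18rap, and IL-33 uses Il1rl1, also known as ST2, with Il1rap. IL-1β and IL-18 are made as precursors and cut by caspase-1 in inflammasomes, whereas IL-33 is kept in the nucleus and released when cells are damaged. In the lung, IL-1 is known for recruiting neutrophils, and IL-33 for acting on group 2 innate lymphoid cells and regulatory T cells.

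In GENCODE M21 (GRCm38) 4 receptor genes lie in 1 cluster on the plus strand of chromosome 1: Il1r2 from 40074079 to 40125231, Il1r1 from 40225080 to 40317257, Il1rl1 from 40429570 to 40465415 and Il18r1 from 40465552 to 40500854. Il1rap lies on chromosome 16 from 26581704 to 26730117. On chromosome 2, Il1rn runs from 24336853 to 24351494 on the plus strand, Il1a from 129299610 to 129309972 and Il1b from 129364570 to 129371139, both on the minus strand. Il18 lies on chromosome 9 from 50554827 to 50581840 and Il33 on chromosome 19 from 29925114 to 29960718. All 10 genes are protein-coding. The antisense gene Il1bos, from 129369897 to 129375748 on the plus strand of chromosome 2, overlaps the start of Il1b. The use of strand in counting is not stated, so their reads cannot be told apart where they overlap. Il1bos held 404 and 264 UMIs in the vehicle and tamoxifen libraries before depletion, against 131867 and 89196 for Il1b.

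The promoters of Il1a, Il1b, Il1r2 and Il1rap are shown because these genes share 1 pattern in the data: each had its highest CPM in neutrophil-like cells. They are the members with a single annotated start in RefSeq (GRCm38.p6) and that pattern. Each run gives the 250 bases before the start, 5′ to 3′ along the gene, with matches to 5 motifs in capitals.
Il1a promoter, chr2:129309973-129310222, minus strand: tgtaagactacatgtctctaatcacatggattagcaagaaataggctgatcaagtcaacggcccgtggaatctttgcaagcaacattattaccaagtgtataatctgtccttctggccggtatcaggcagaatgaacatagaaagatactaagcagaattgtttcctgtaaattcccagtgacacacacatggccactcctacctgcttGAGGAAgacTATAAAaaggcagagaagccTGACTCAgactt
Il1b promoter, chr2:129371140-129371389, minus strand: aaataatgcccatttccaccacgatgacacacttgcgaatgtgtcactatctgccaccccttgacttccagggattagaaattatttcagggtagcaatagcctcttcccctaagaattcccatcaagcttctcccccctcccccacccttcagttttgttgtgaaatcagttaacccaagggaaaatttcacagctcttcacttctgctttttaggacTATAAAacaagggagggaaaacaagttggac
Il1r2 promoter, chr1:40085843-40086092, plus strand: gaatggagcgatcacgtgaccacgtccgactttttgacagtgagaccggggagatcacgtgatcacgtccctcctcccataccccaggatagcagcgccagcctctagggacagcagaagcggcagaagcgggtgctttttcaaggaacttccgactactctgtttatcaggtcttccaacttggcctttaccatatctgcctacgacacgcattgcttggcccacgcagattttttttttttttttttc
Il1rap promoter, chr16:26581455-26581704, plus strand: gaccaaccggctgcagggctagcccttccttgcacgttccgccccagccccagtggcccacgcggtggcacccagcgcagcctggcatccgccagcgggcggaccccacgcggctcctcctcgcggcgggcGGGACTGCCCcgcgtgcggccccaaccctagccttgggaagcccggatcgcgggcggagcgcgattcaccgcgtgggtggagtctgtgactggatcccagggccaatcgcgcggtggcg
5 motifs were searched on both strands. The NF-kB-type motif (GGGA, any 4 bases, then CC) occurs in 17.6% of 32851 RefSeq promoters of the same length. The C/EBP-type motif TTGCNNAA occurs in 9.56% of them. The AP-1-type motif TGANTCA occurs in 6.75%. The ETS-type motif GAGGAA occurs in 23.3%. The TATA-type motif TATAAA occurs in 12.4%. In Il1a the capitals mark an ETS-type, a TATA-type and an AP-1-type match, in Il1b a TATA-type match and in Il1rap an NF-kB-type match. Il1r2 has no match in this window, and its RefSeq start lies inside the GENCODE span of the gene. The motif matches in these windows do not overlap each other. All 10 genes were in the RefSeq table, with 17 starts. Across these starts, NF-kB-type matches stood at 2, C/EBP-type at 3, AP-1-type at 2, ETS-type at 2 and TATA-type at 5. A match is a string of letters and not a measured binding site, and a window without a match says only that these letters are not there.

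Il1b, the inducible secreted IL-1 agonist, was a myeloid transcript. Neutrophil-like cells carried 15647 CPM (15492 to 15804) with vehicle and 15258 CPM (15079.9 to 15438) with tamoxifen, the highest level of any class in both libraries. C1q macrophage-like cells, tissue macrophages marked by complement C1q genes, followed at 3029.8 and 2927 CPM. Cycling myeloid-like cells stood at 2767 and 2317 CPM, cDC2-like dendritic cells at 2494 and 2277 CPM and monocyte-like cells at 2616 and 1649 CPM. The order of those 3 changed with the library: the intervals of the last 2 overlapped with vehicle, and those of cycling myeloid-like and cDC2-like cells overlapped with tamoxifen. The monocyte-like class was named from markers of non-classical monocytes, such as Ace and Treml4. No class of classical monocyte-like cells was named. Mature dendritic cell-like cells reached 910.1 and 866 CPM. Alveolar macrophage-like cells, the resident macrophages of the air space, reached only 444 and 509 CPM.

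Counted per cell the order differed. Neutrophil-like cells hold few UMIs: their median was 3419 and 3616 UMIs per cell, against 17184.5 and 17179 in C1q macrophage-like cells. Neutrophil-like cells carried a mean of 58.8 and 55.6 Il1b UMIs per cell and C1q macrophage-like cells 53.1 and 51.9, so per cell the classes were close. Cycling myeloid-like cells had the highest mean per cell, 84.2 and 69.3. Of all Il1b UMIs of a library, C1q macrophage-like cells held 38.9 and 38.3% and neutrophil-like cells 29.2 and 31.4%. cDC2-like cells added 10.1 and 6.68% and alveolar macrophage-like cells 4.72 and 10.8%. The top 5% of cells held 15.4% and 16.6% of the Il1b UMIs of neutrophil-like cells and 18.4% and 18.8% of those of C1q macrophage-like cells. Il1b was therefore spread over these classes and not carried by a few cells.

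**Figure D1:**
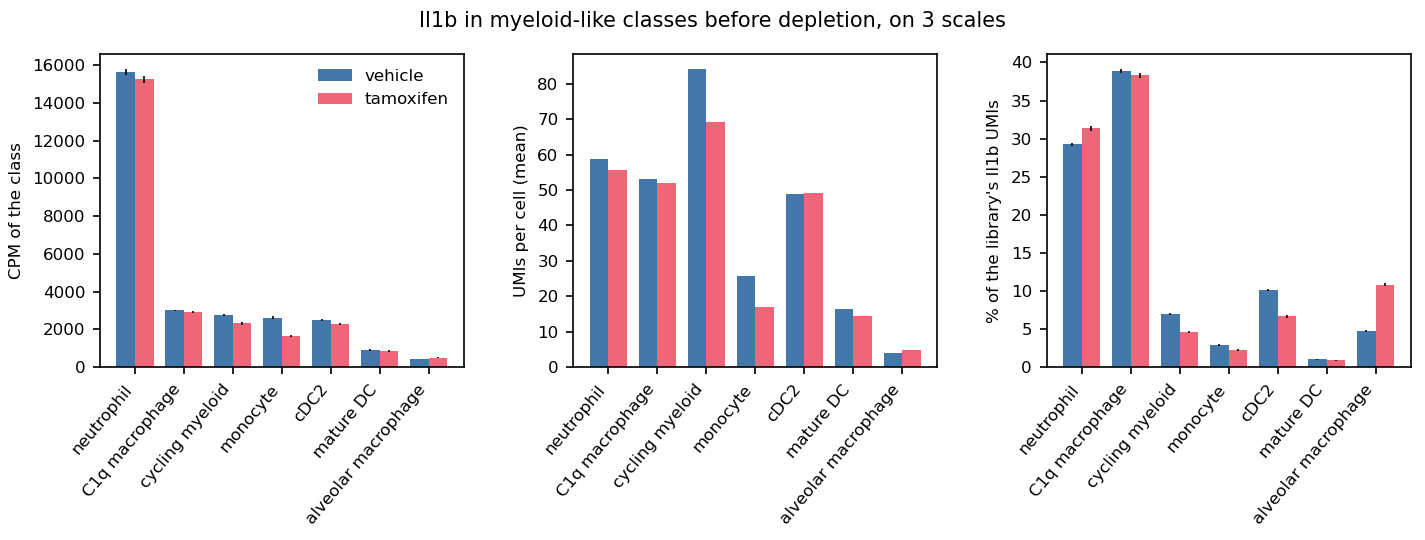
Il1b in 7 myeloid-like classes of the libraries before depletion, as CPM of the class (left), mean UMIs per cell (middle) and percent of the library's Il1b UMIs (right). Bars are vehicle and tamoxifen, and the lines on the left and right panels are exact 95% counting intervals. Neutrophil-like cells stand highest on the left at 15647 and 15258 CPM, cycling myeloid-like cells in the middle and C1q macrophage-like cells on the right.

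Neutrophil-like cells fell into 2 clusters. Cluster M10 (495 and 405 cells with vehicle and tamoxifen) was led by G0s2, Acod1 and Csf1, and cluster M12 (160 and 98 cells) by Retnlg and Ly6g, genes of freshly released neutrophils. Il1b stood at 17731 and 16652 CPM in M10 and at 10321 and 9947 CPM in M12, so both clusters carried it. Il1a separated them far more, at 934 and 826 CPM in M10 and 27.4 and 23.6 CPM in M12. Il1rn also stood higher in M10, at 1688 and 1437 against 297 and 157 CPM. The decoy Il1r2 was close between them, at 4670.3 and 3859 and 4343 and 3253 CPM. Il1rap went the other way, with 607 and 462 CPM in M10 and 1079.9 and 1018 CPM in M12. Il1a and Il1rn thus stood higher in M10 and Il1rap in M12, the same way in both libraries. Il18 stood at 11.9 and 10.3 CPM in M10 (21 and 15 UMIs) and 31.8 and 28.9 CPM in M12 (22 and 11 UMIs). Its intervals in the clusters overlapped with tamoxifen and not with vehicle. Il18r1 stood at 29.4 and 25.5 CPM in M10 and 18.8 and 13.1 CPM in M12 (13 and 5 UMIs), with intervals that overlapped in both libraries.

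C1q macrophage-like cells held 3 clusters. M4 was led by Ms4a7, Ccl12 and Apoe, M5 by Nrg1 and Ccr2, and M6 by Arg1, Cxcl3 and Inhba (124 and 51 cells). Il1b stood at 2552 and 2411 CPM in M4, 3057 and 3207 CPM in M5 and 4269 and 3622 CPM in M6. Il1a was lowest in M5, at 190.3 and 197 CPM, against 542 and 393 CPM in M4 and 661 and 674 CPM in M6. Il1rn was highest in M6, at 457 and 773 CPM, and lowest in M4, at 173 and 143 CPM. M5 carried the most Il1r2, 849 and 679 CPM against 149.8 and 179 CPM in M6. M6, the Arg1-led cluster, therefore had the highest levels of both agonists and of the antagonist among the 3, and little of the decoy.

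Il1a encodes the second agonist, which is active without caspase-1 cleavage and is partly kept in the cell. Neutrophil-like cells carried 679 CPM (647 to 712) and 659 CPM (623 to 698) with vehicle and tamoxifen. C1q macrophage-like cells followed at 368 and 323 CPM, cycling myeloid-like cells at 306 and 248 CPM and alveolar macrophage-like cells at 134 and 146 CPM. These 4 levels were apart by their counting intervals in both libraries, and their order was the same in both. Mature dendritic cell-like cells stood at 64.4 and 29.7 CPM, and no other named class of 50 cells or more was above 48.7 CPM, the value of monocyte-like cells with vehicle. C1q macrophage-like cells held 52.5 and 43.7% of the library's Il1a UMIs. cDC2-like cells, high in Il1b, carried Il1a at only 26.4 and 18.7 CPM.

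Il1rn, the secreted antagonist, was found in the same myeloid classes. Neutrophil-like cells carried 1297 and 1171 CPM, C1q macrophage-like cells 264 and 288 CPM and alveolar macrophage-like cells 191 and 276 CPM. The intervals of the latter 2 overlapped with tamoxifen and not with vehicle. Alveolar macrophage-like cells held 21.8 and 43.7% of the library's Il1rn UMIs, and they numbered 1536 and 2002 cells. C1q macrophage-like cells held 36.5 and 28.1%. In alveolar macrophage-like cells the UMIs of Il1rn over those of Il1a plus Il1b were 0.330 and 0.422. The same ratio was lower in the other main sources, 0.0778 and 0.0887 in C1q macrophage-like, 0.0794 and 0.0736 in neutrophil-like and 0.0343 and 0.0365 in cDC2-like cells. The ratio is compared between classes only and does not say which protein is in excess.

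Within alveolar macrophage-like cells the balance differed by cluster. Cluster M2, led by Klk8 and Cdkn2a (288 and 702 cells), carried Il1b at 679 and 791 CPM and Il1rn at 272 and 404 CPM. Cluster M0, led by Fabp4 and Gpnmb (702 and 754 cells), carried them at 352 and 298 CPM and 168 and 195 CPM. Il18 showed the reverse order, with 305 and 290.1 CPM in M2 and 489 and 458 CPM in M0. Cluster M3, led by Htr2c and Kcnip4, was between them for Il1b, at 468 and 454 CPM, and for Il18, at 396 and 384 CPM.

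Il18, the ligand that acts on NK and T cells, had a single main source. Alveolar macrophage-like cells carried 407 CPM (397 to 418) with vehicle and 372 CPM (363 to 381) with tamoxifen, and held 81.9 and 83.1% of the library's Il18 UMIs. Among named classes of 50 cells or more, the next values were 37.7 CPM in monocyte-like cells with vehicle and 53.5 CPM in cDC1-like cells with tamoxifen. C1q macrophage-like cells stood at 23.1 and 32.5 CPM. Of these macrophage classes, Il18 was thus higher in alveolar macrophage-like and Il1b in C1q macrophage-like cells. Alveolar macrophage-like cells still carried Il1b, at 444 and 509 CPM. In epithelial-like cells Il18 was low, at 8.74 and 14.1 CPM before and 7.40 and 10.7 CPM after depletion.

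Il33, the nuclear alarm ligand, was an epithelial transcript in these tumours. Epithelial-like cells carried 160.3 CPM (156 to 165) with vehicle and 93.3 CPM (90.1 to 96.6) with tamoxifen before depletion. They held 92.3 and 90.6% of the library's Il33 UMIs. Fibroblast-like cells stood at 13.8 and 24.2 CPM (84 and 48 cells), but 24 of 28 and 16 of 25 UMIs came from 1 cell in each library. Cells left unnamed, which may mix types, stood at 82.2 and 54.9 CPM (120 and 140 cells). Endothelial-like cells were at 1.13 and 1.30 CPM, and alveolar macrophage-like cells at 2.64 and 1.84 CPM. B cell-like cells stood at 13.1 and 21.8 CPM, but 26 of 34 and 23 of 26 UMIs came from 1 cell in each library. After thinning every cell to 2000 UMIs, 24.7% and 14.9% of epithelial-like cells had an Il33 UMI, against 0.330% and 0.352% of alveolar macrophage-like cells. Without thinning the shares were 59.3% and 50.6% against 2.21% and 1.65%. The median depths were 24959 and 28969 UMIs for epithelial-like and 8437 and 8829 for alveolar macrophage-like cells. Thinning left out 67 and 11 epithelial-like and 20 and 14 alveolar macrophage-like cells.

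**Figure D2:**
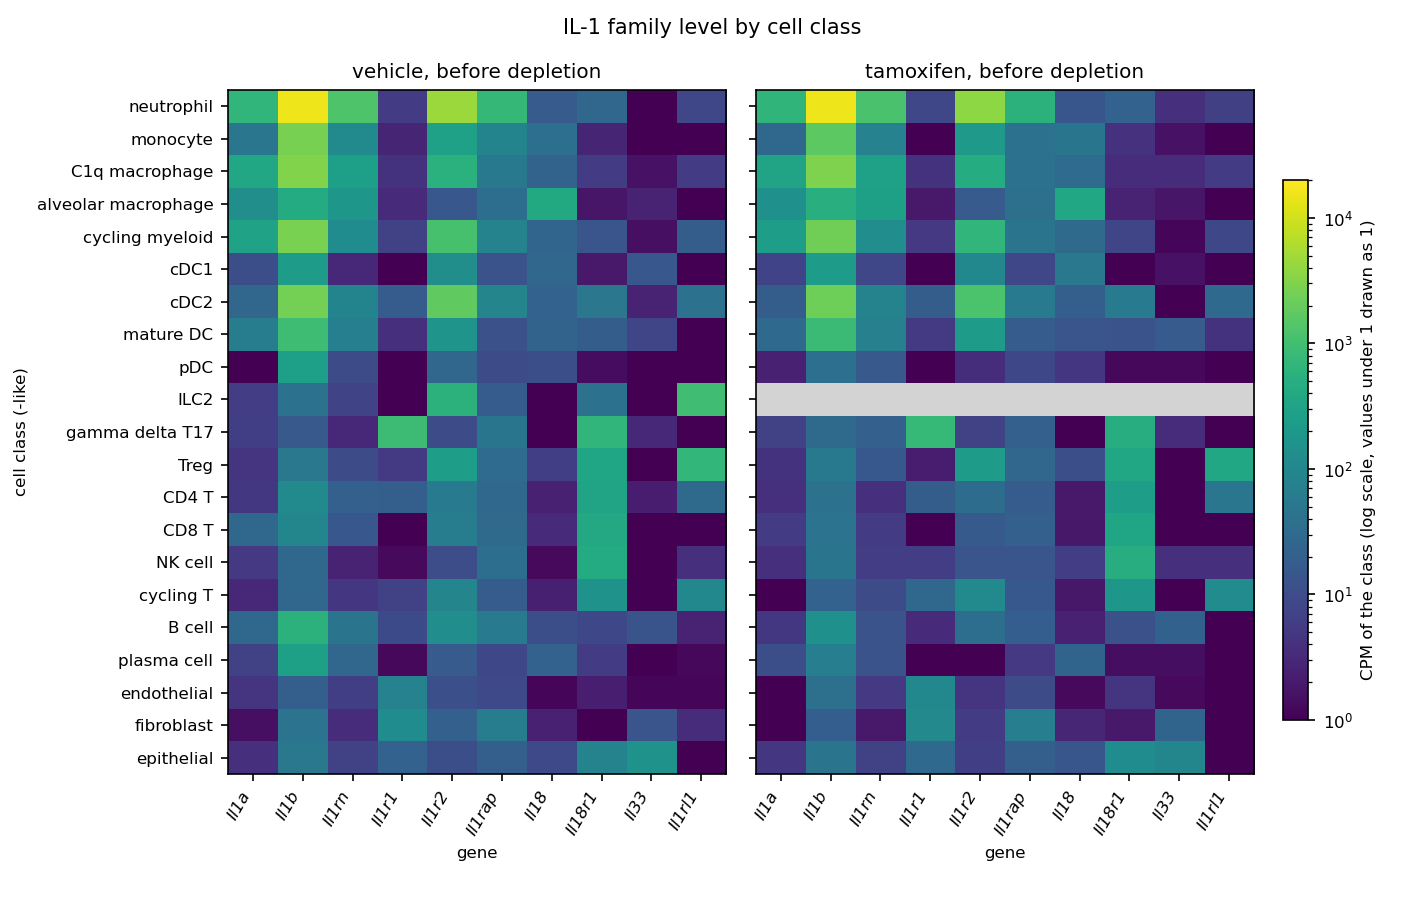
Level of the 10 genes (x axis) in 21 named cell classes (y axis) of the vehicle and tamoxifen libraries before depletion, as CPM of the class on a log colour scale. Values under 1 CPM are drawn as 1 and the grey row is a class with too few cells. Il1a, Il1b, Il1rn, Il1r2 and Il1rap are brightest in neutrophil-like cells, Il18 in alveolar macrophage-like cells and Il33 in epithelial-like cells.

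On the receiving side, Il1r1, the chain through which IL-1 signals, was low or near 0 in the classes that carried most IL-1. Neutrophil-like cells stood at 5.68 and 8.18 CPM and C1q macrophage-like cells at 4.25 and 4.20 CPM. cDC2-like cells, also a source of Il1b, stood higher, at 17.6 and 18.4 CPM, near the level of CD4 T-like cells. The highest level of Il1r1 was in gamma delta T17-like cells, IL-17-making T cells, at 896 and 759.5 CPM. They numbered 44 and 38 cells, fewer than the 50 set as a minimum. Before depletion fibroblast-like cells followed at 122 and 105 CPM. After it they stood at 89.3 and 76.4 CPM, below mesothelial-like cells with vehicle at 188 CPM (138 to 250.2) from 31 cells. Endothelial-like cells stood at 80.5 and 101 CPM before and 80.4 and 71.1 CPM after depletion. With tamoxifen before depletion, 59 of the 155 endothelial UMIs came from 1 cell, without which the level was 63.4 CPM. Epithelial-like cells stood at 22.5 and 30 CPM but, being deep and many, held 37.9 and 54.5% of the library's Il1r1 UMIs. CD4 T-like cells reached 20.2 and 18.4 CPM, with 58.5 and 135 CPM in cluster L6 (101 and 39 cells), which was led by St6galnac1 and Tmem176a. CD8 T-like cells stood at 0.804 and 0.965 CPM and NK-like cells at 1.27 and 5.95 CPM.

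Endothelial-like cells were not uniform. Cluster S1, led by Selp, Tll1 and Sele and with Lyve1 among its 10 leading genes, carried Il1r1 at 193 and 214 CPM before and 181 and 134 CPM after depletion (30 and 36 cells before and 45 and 24 after). Selp and Sele encode adhesion molecules of endothelium. Of the marker lists, S1 came nearest to that of lymphatic endothelium, with 3 markers detected, and such cells were kept within the endothelial-like class. The cell with 59 UMIs lay in S1, and without it S1 stood at 83.8 CPM with tamoxifen before depletion. That level was chosen after the data were seen. Cluster S10, led by Prnd, Esm1 and Angpt2, stood at 36.04 and 23.8 CPM before and 56.8 and 58.6 CPM after. S1 was the higher of this pair in all 4 libraries, also without the cell of most UMIs in each cluster. Each cluster held fewer than 50 cells in every library. Among other endothelial-like clusters, S5 stood at 100 and 91.5 CPM before depletion and S9 at 37.4 and 68.8 CPM. With tamoxifen before depletion S1 without the cell with 59 UMIs was thus below S5. Its interval, 58.4 to 117 CPM, included the level of S9. After depletion S5 stood at 48.7 CPM with tamoxifen, and S9 at 28.2 and 41.1 CPM. Among fibroblast-like cells, cluster S2, led by Mmp3 and Inmt, carried Il1r1 at 143 and 116 CPM before depletion. In fibroblast-like cells with vehicle, 50 of 84 cells had UMIs of both Il1r1 and Il1rap, the 2 chains of the receptor.

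Il1rap, the chain shared by the receptors of IL-1 and IL-33, was highest in neutrophil-like cells, at 739.6 and 578 CPM. cDC2-like cells stood at 91.6 and 61.2 CPM, monocyte-like cells at 85.7 and 41.3 CPM and fibroblast-like cells at 65.2 and 68.6 CPM. In C1q macrophage-like and alveolar macrophage-like cells it was counted at 54.4 and 40.8 and 36.5 and 39.1 CPM. With vehicle the intervals of cDC2-like and monocyte-like cells overlapped, as did those of monocyte-like and fibroblast-like and of fibroblast-like and C1q macrophage-like cells. With tamoxifen each of these classes, ordered by its level, overlapped the next, down to alveolar macrophage-like cells.

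Il1r2, the decoy receptor, was a myeloid gene with lymphoid exceptions. Neutrophil-like cells carried 4578 CPM (4494 to 4663) with vehicle and 3733 CPM (3645 to 3822) with tamoxifen. cDC2-like cells followed at 1772 and 1217 CPM, cycling myeloid-like cells at 1133 and 666 CPM and C1q macrophage-like cells at 564 and 455 CPM. Alveolar macrophage-like cells stood at only 14.9 and 17.4 CPM. Outside the myeloid classes, ILC2-like cells, group 2 innate lymphoid cells, carried 571 CPM with vehicle (55 cells). Treg-like cells, regulatory T cells, carried 251 and 228 CPM and CD4 cluster L6 189 and 209 CPM. UMIs of Il1r2 over those of Il1r1 were 133 and 108 in C1q macrophage-like, 101 and 66.3 in cDC2-like and 0.141 and 0.0452 in endothelial-like cells.

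Il18r1, the ligand-binding chain of the IL-18 receptor, was found in lymphoid cells and in epithelial-like cells. NK-like cells carried 446 and 472 CPM, CD8 T-like cells 387 and 344 CPM, Treg-like cells 343 and 377 CPM and CD4 T-like cells 331 and 254 CPM. With vehicle the intervals of NK-like and CD8 T-like cells overlapped, as did those of CD8 T-like and Treg-like cells. With tamoxifen Treg-like cells came between them and overlapped both, while NK-like and CD8 T-like cells did not overlap. Gamma delta T17-like cells stood at 686 and 482 CPM. Within CD4 T-like cells, cluster L6 carried 824 and 682 CPM and cluster L9 410.0 and 486 CPM, while cluster L5, led by Igfbp4 and Lef1, genes of naive T cells, carried 87.1 and 48.2 CPM. Within CD8 T-like cells, cluster L7, led by Csf1 and Itga1, carried 592 and 449 CPM and cluster L2, led by Gzmk and Eomes, 149 and 171 CPM. In gamma delta T17-like cells 41 of 44 cells with vehicle and 28 of 38 with tamoxifen had UMIs of both Il1r1 and Il18r1.

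Il1rl1, the IL-33 receptor ST2, had its highest levels in 2 lymphoid classes. ILC2-like cells carried 971 CPM (897 to 1049) with vehicle, where 53 of 55 cells had a UMI. With tamoxifen only 8 such cells were found, too few for a level. Treg-like cells carried 694 and 366 CPM (181 and 73 cells) and held 35.4 and 26.1% of the library's Il1rl1 UMIs. For comparison, 6 of 1536 alveolar macrophage-like cells with vehicle had an Il1rl1 UMI, at a median depth of 8437 UMIs against 8704 in ILC2-like cells. Mast or basophil-like cells, known users of ST2, numbered only 15 and 6 and were not given a level. Cycling T-like cells stood at 102 and 119 CPM and CD4 T-like cells at 30.3 and 48.7 CPM. CD4 cluster L9, led by Pard3 and Ramp3, carried 142 and 189 CPM, above the 17.2 and 6.89 CPM of cluster L1. cDC2-like cells stood at 40.5 and 29.8 CPM. Of the ILC2-like cells with vehicle, 27 had UMIs of both Il1rl1 and the decoy Il1r2, and of 181 Treg-like cells 49 did. Epithelial-like cells, the main source of Il33, stood at 0.877 and 0.784 CPM of Il1rl1.

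Epithelial-like cells were measured in all 4 libraries, so their levels could be set side by side before and after immune cells were removed. Il33, at 160.3 and 93.3 CPM before and 146 and 89.6 CPM after depletion, kept its level. So did Il18r1, at 82.3 and 123 CPM before and 77.6 and 116 CPM after, and Il1r1, at 22.5 and 30 CPM before and 21.98 and 30.9 CPM after. Il1rap stood at 19.7 and 20.04 CPM before and 15.6 and 18.7 CPM after depletion. Il1b behaved differently: it was counted at 53.7 and 44.9 CPM before and 0.118 and 0.0375 CPM after depletion, the latter from 16 and 5 UMIs. Il1r2, at 10.9 and 6.33 CPM before and 0.133 and 0.120 CPM after, Il1rn, at 6.71 and 6.77 CPM before and 0.392 and 0.367 CPM after, and Il1a, at 3.85 and 4.70 CPM before and 0.333 and 0.442 CPM after, were also near 0 after depletion. The genes that fell away in epithelial-like cells were those that neutrophil-like and macrophage-like cells carry. The 7 neutrophil markers summed to 96.1 and 67.6 CPM in epithelial-like cells before depletion and to 37.5 and 24.1 CPM after it, all 7 being seen in each library. After depletion 1 marker gave 33.4 and 19.7 CPM of that sum. Il1b UMIs over those of S100a8 plus S100a9 were 1.24 and 1.36 in epithelial-like cells before depletion, 0.363 and 0.355 in neutrophil-like and 35.8 and 106 in C1q macrophage-like cells, so the epithelial ratio lay between those of the main sources. The 7 T cell markers summed to 23.6 and 18.8 CPM before and 9.11 and 9.68 CPM after, when Cd3e and Cd3g were at 0 in both libraries. The part of free RNA or of mixed droplets in the Il1b of epithelial-like cells before depletion was not tested. The share of epithelial-like cells with an Il18r1 UMI, at 2000 UMIs per cell, was 13.7% and 18.2% before depletion, against 0.462% and 0.352% of alveolar macrophage-like cells. Without thinning these shares were 63.9% and 77.01% against 1.56% and 2.35%, at the median depths given for Il33. Epithelial-like cells thus carried Il33, Il18r1 and Il1r1, and IL-1 agonists at under 0.5 CPM in the depleted libraries.

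**Figure D3:**
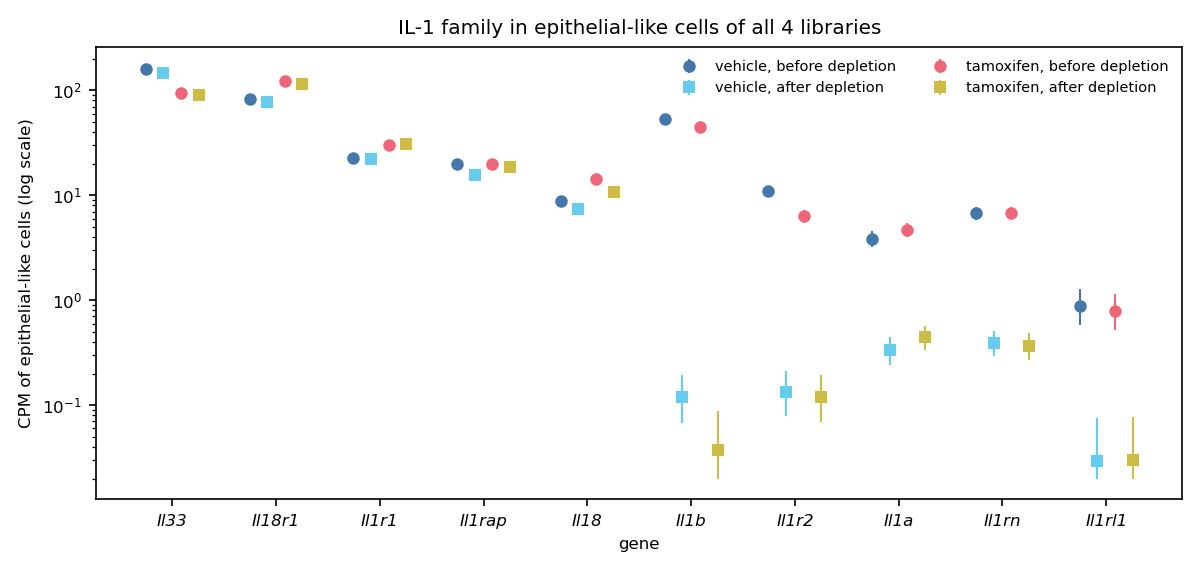
The 10 genes in epithelial-like cells of the 4 libraries, as CPM of the class on a log scale, with exact 95% counting intervals drawn no lower than 0.02 CPM. Circles are libraries before and squares libraries after depletion. Il33, Il18r1, Il1r1, Il1rap and Il18 stay near their level, while Il1b goes from 53.7 and 44.9 CPM to 0.118 and 0.0375 CPM.

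Epithelial-like clusters divided the family further. Il33 was highest in the type 2-like cluster G15, led by Lyz1, Cbr2 and Scd1, at 552 and 387 CPM before and 499 and 379 CPM after depletion. It was low in the transitional-like clusters G10, led by Procr and Edn1, at 38.6 and 33.9 CPM before and 57.4 and 34.3 CPM after, and G17, led by Anxa10 and Nrk, at 26.8 and 23.8 CPM after depletion. G15 made up 30.6% and 15.98% of epithelial-like cells before depletion and held 62.6% and 43% of their Il33 UMIs. Il18r1 had another order. It was highest in the type 1-like cluster G14, led by Rtkn2 and Akap5, at 153 and 279 CPM before and 169.8 and 226 CPM after depletion, and in G10, at 137 and 224 CPM before and 140.1 and 215 CPM after. In G15 it stood at 58.8 and 62.5 CPM before and 61.2 and 60.9 CPM after depletion, and it was lowest in the Ttr- and Agr2-led cluster G7, at 37.7 and 40.3 CPM after depletion. Il1r1 was lowest in G15, at 10.3 and 10.4 CPM before and 12.1 and 14.1 CPM after, and stood at 28.6 and 45.7 CPM before and 36.3 and 45.4 CPM after in G14. Il1rap was higher in the Bex2- and Zmat4-led cluster G9, at 34.6 and 25.5 CPM after depletion, than in G15, at 4.89 and 6.03 CPM. Among these clusters the type 2-like cluster thus paired the highest Il33 with the lowest Il1r1. The type 1-like cluster had the highest Il18r1, but G10 was close to it in some libraries. The levels of G14 and G10 were 153 and 137 CPM with vehicle before depletion, and 226 and 215 CPM with tamoxifen after. The names of G15, G14, G10 and G17 were kept after their marker levels were seen. Normal and tumour epithelium were not separated.

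**Figure D4:**
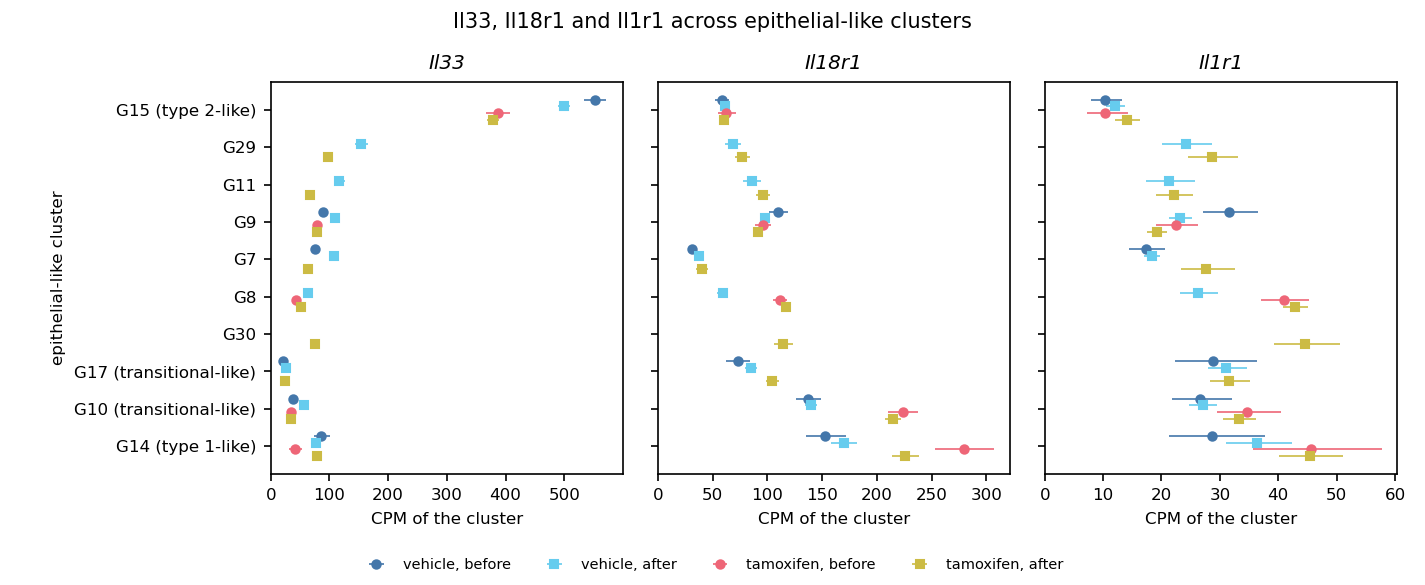
Il33, Il18r1 and Il1r1 in epithelial-like clusters (y axis), as CPM of the cluster (x axis), for each library with 50 cells or more of the cluster, with exact 95% counting intervals. G15 stands highest for Il33, at 552 and 387 CPM before depletion, and lowest for Il1r1, while G14 and G10 stand highest for Il18r1.

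The treatments were compared by a rule of size: a gene counted as apart in a class when it reached 10 CPM in either library and differed at least 2-fold, with a pseudocount of 1 CPM. Before depletion 11 classes had 100 cells in both libraries, and the 10 genes gave 69 gene and class pairs at 10 CPM. Of these, 15 were apart, all lower with tamoxifen, while 3.68% of all feature and class pairs were apart in the same classes. Below 0 were 47 of the 69 log2 ratios. Over all features the class medians ran from -0.13 to 0.06, and the share of features below 0 was not counted. The split of the pairs apart depended on the processing: when every cell counted equally, 4 pairs were higher and 6 lower, and at clustering resolution 2, 2 were higher and 7 lower. In the classes that carried most of the family no gene was apart: 0 of 7 in neutrophil-like cells (3.62% of all features compared there were apart), 0 of 6 in C1q macrophage-like cells (0.795%), 0 of 6 in alveolar macrophage-like cells (0.415%) and 0 of 9 in cDC2-like cells (1.6%). The log2 ratio of tamoxifen over vehicle for Il1b was -0.04 (-0.06 to -0.01) in neutrophil-like, -0.05 (-0.07 to -0.03) in C1q macrophage-like and 0.20 (0.15 to 0.24) in alveolar macrophage-like cells. For Il1r2 it was -0.29, -0.31 and -0.54 in neutrophil-like, C1q macrophage-like and cDC2-like cells. The main sources of Il1b therefore carried it at close levels in both libraries, and the decoy was somewhat lower with tamoxifen. In the other direction, the antagonist Il1rn in alveolar macrophage-like cells went from 191 to 276 CPM, 0.53 (0.46 to 0.60). The makeup of the class differed too: cluster M2, the highest in Il1rn, held 288 and 702 cells with vehicle and tamoxifen. Within clusters Il1rn was counted at 168 and 195 CPM in M0, 272 and 404 CPM in M2, 170.5 and 218 CPM in M3 and 174 and 197 CPM in M9, so it was higher with tamoxifen in all 4. The part of the makeup in the class's shift was not tested.

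Of the 15 pairs, 13 lay in B cell-like, T cell-like and NK-like classes. In B cell-like cells 6 of 8 were lower with tamoxifen (6.07% of features apart): Il1b went from 573 to 145 CPM, with Il1a, Il1rn, Il1r2, Il1rap and Il18. In CD8 T-like cells 4 of 6 were lower (5.44%), Il1a, Il1b, Il1rn and Il1r2, and in CD4 T-like cells 2 of 7 (2.08%), Il1b and Il1rn. The others were Il1r2 among 3 genes in endothelial-like cells (2.77%), Il1rap among 6 in monocyte-like cells (4.77%) and Il1rap among 4 in NK-like cells (10.5%). The median log2 ratio of the genes was -1.76 in B cell-like cells, -1.14 in CD8 T-like and -0.64 in CD4 T-like cells, against -0.13, -0.07 and -0.11 over all features. In neutrophil-like, C1q macrophage-like and alveolar macrophage-like cells it was -0.20, -0.12 and 0.16, against 0.06, -0.06 and -0.03. The Il1b UMIs of these lymphoid classes sat in few cells. The top 5% of B cell-like cells held 94.5% and 86.7% of them. The 7 neutrophil markers, all seen in both libraries, summed to 2345 and 259 CPM in B cell-like cells. In CD4 T-like cells they summed to 181 and 72.1 CPM (Cxcr2 at 0 with tamoxifen), and in CD8 T-like cells to 59.5 and 55 CPM (Retnlg at 0 with vehicle and Cxcr2 with tamoxifen). In NK-like cells the sums were 56.1 and 119 CPM, and in endothelial-like cells 58.9 and 52.1 CPM, with Retnlg at 0 in 3 of these 4 sums.

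Cells with 10 or more UMIs of neutrophil or macrophage markers were then left out of lymphoid and endothelial-like classes, a choice made after these values were seen. This removed 23 and 5 B cell-like, 6 and 1 CD4 T-like and 2 and 0 CD8 T-like cells with vehicle and tamoxifen. Il1b then stood at 39.4 and 33.98 CPM in B cell-like, 35.5 and 38.4 CPM in CD4 T-like and 32.8 and 43.4 CPM in CD8 T-like cells. The count of pairs apart went from 15 of 69 to 5 of 63. Those 5 were Il1r2 in endothelial-like cells, Il1rap in B cell-like, monocyte-like and NK-like cells, all lower with tamoxifen, and Il1rn in B cell-like cells, now higher, at 3.94 and 13.2 CPM. Part of the fall in the count came from pairs that no longer reached 10 CPM and so were not compared. These were Il1a and Il18 in B cell-like, Il1a and Il1rn in CD8 T-like and Il1rn in CD4 T-like cells. The lower Il1b of B and T cell-like classes was not seen without the few cells left out. With a finer clustering (resolution 2 in place of 1), Il1b in B cell-like cells was higher with tamoxifen, at a log2 ratio of 1.02, and 9 of 67 pairs were apart. Without doublet removal 8 of 67 were apart.

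**Figure D5:**
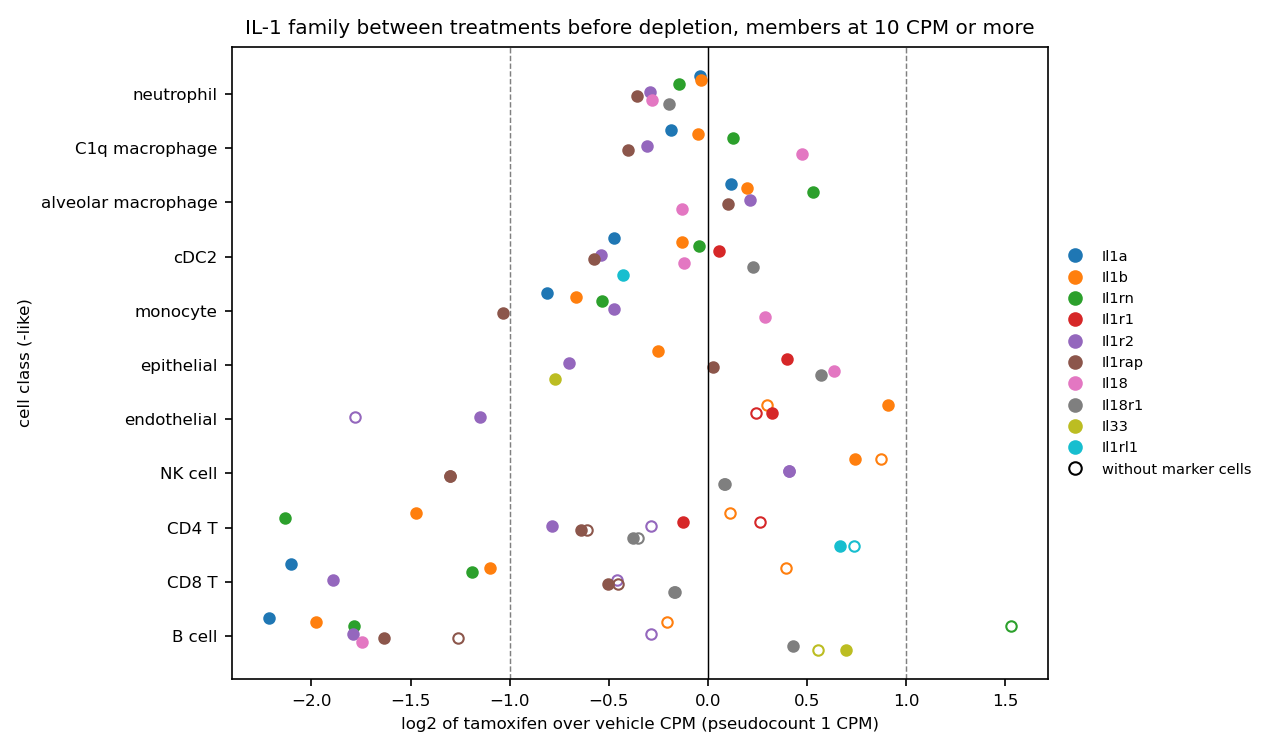
Log2 of tamoxifen over vehicle CPM (x axis, pseudocount 1 CPM) before depletion for each of the 10 genes (colours) in 11 classes (y axis), where a gene reached 10 CPM. Filled points are all cells, open points leave out cells with neutrophil or macrophage markers, and dashed lines mark 2-fold. The filled points beyond 2-fold lie mostly in B, CD8 and CD4 T cell-like classes. An open point is drawn only where the gene still reached 10 CPM, so several of these have none. Of the open points drawn for them, Il1rap (-1.26) and Il1rn (1.53) in B cell-like cells lie beyond 2-fold and the rest within it.

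In the remaining classes, monocyte-like cells had a median log2 ratio of -0.60, against -0.02 over all features, with Il1b going from 2616 to 1649 CPM, -0.67 (-0.74 to -0.59), and Il1rap from 85.7 to 41.3 CPM. In these cells the 7 neutrophil markers summed to 1169 and 533 CPM, all 7 seen in both libraries, and their part in the result was not tested. In T and NK-like classes Il18r1 stayed under 2-fold, with log2 ratios of 0.08 (-0.16 to 0.32) in NK-like, -0.17 (-0.37 to 0.03) in CD8 T-like and -0.38 (-0.53 to -0.23) in CD4 T-like cells. Il1rl1 in CD4 T-like cells went from 30.3 to 48.7 CPM. In Treg-like cells, with fewer than 100 cells in the tamoxifen library, it went from 694 to 366 CPM. With 3 counts as the floor, a gene listed at 0 in that library's Treg-like cells could still stand at 6.50 CPM.

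In epithelial-like cells 0 of 7 genes were apart before depletion (1.97% of features) and 0 of 5 after it (1.81%), and none in both pairs (1.34%). The pairs share their suspensions and do not replicate each other. Below the 2-fold line, 3 genes shifted by similar amounts in both pairs. Il33 was lower with tamoxifen, with log2 ratios of -0.77 (-0.84 to -0.72) before and -0.70 (-0.74 to -0.68) after depletion. Il18r1 was higher, 0.57 (0.51 to 0.65) before and 0.57 (0.54 to 0.62) after. Il1r1 was higher, 0.40 (0.27 to 0.55) before and 0.47 (0.42 to 0.56) after. Il18, at a low level, was also higher, 0.64 (0.48 to 0.91) before and 0.48 (0.41 to 0.65) after. The makeup of the class differed between the libraries: after depletion G7 held 1273 and 132 cells with vehicle and tamoxifen, G8, led by Gm33055 and Dcpp1, 374 and 1514 cells and G15 1502 and 1049 cells. Clusters of 50 cells or more in both libraries were then given the same weights with vehicle and tamoxifen. A cluster's weight was the mean of its shares of UMIs in both libraries. With these weights the Il33 ratio was -0.45 before (lower in 4 of 4 clusters) and -0.47 after depletion (lower in 8 of 9). That of Il18r1 was 0.36 and 0.36, higher in 3 of 4 and 7 of 9 clusters. That of Il1r1 was 0.02 before and 0.29 after depletion, higher in 3 of 4 and 8 of 9 clusters. Before depletion the minimum of 50 cells left out G7 (137 and 15 cells) and G8 (49 and 227 cells), among others. With vehicle G7 held 17.1% and G8 8.90% of the class's Il1r1 UMIs, and with tamoxifen 1.55% and 38.0%. The weighted ratios before depletion thus cover only part of the class and differ from the class ratios in more than the weights. All 3 genes kept their direction within most of the clusters compared. The Il1r1 ratio with the shared weights was close to 0 before depletion. After depletion 1 of 2 genes was apart in endothelial-like cells (4.75%), Il1rap, from 15 and 3 UMIs.

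The rest of the pathway was described by lists, summed over the same 11 classes before depletion, where 3.68% of 91796 feature and class pairs were apart. Of 11 other family genes found among 15 named, 25 pairs reached 10 CPM, with 0 higher and 2 lower. Il1f9, which encodes IL-36γ, had its highest level in neutrophil-like cells, at 192 and 194 CPM, and in monocyte-like cells went from 21 UMIs, 14.4 CPM, to 0. Il18rap, the second chain of the IL-18 receptor, stood at 799 and 718 CPM in NK-like and 355 and 351 CPM in neutrophil-like cells. In epithelial-like cells after depletion Il18rap went from 7.60 to 16.5 CPM, at the edge of the 2-fold line and in the direction of Il18r1. In B cell-like cells it went from 10.4 to 3.35 CPM, and Il18bp, which encodes the IL-18 binding protein, in endothelial-like cells after depletion from 15.5 to 7.11 CPM.

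Of 17 signalling genes, 175 pairs were compared, with 0 higher and 2 lower, Irak3, an inhibitor of the pathway, in endothelial-like cells (12.5 to 3.26 CPM) and Traf6 in B cell-like cells (49.95 to 22.6 CPM). Of 12 processing genes, 104 pairs were compared, with 2 higher and 3 lower. Nlrp3, the sensor of an inflammasome, stood at 1208 and 949 CPM in neutrophil-like and 400.0 and 296 CPM in C1q macrophage-like cells. It was lower with tamoxifen in CD4 T-like cells (20.2 to 3.98 CPM) and B cell-like cells (37.3 to 10.04 CPM), where the neutrophil markers were also lower. Nlrc4, another inflammasome sensor, was lower with tamoxifen in epithelial-like cells, 18.5 to 7.55 CPM before and 16.2 to 7.48 CPM after depletion. P2rx7, an ATP receptor that triggers inflammasomes, was higher there before depletion, 4.89 to 11.01 CPM. Nlrp1b, also an inflammasome sensor, was higher in monocyte-like cells, 8.23 to 18.2 CPM, from 12 and 22 UMIs.

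Of 16 genes known as targets of IL-1, 75 pairs were compared, with 2 higher and 16 lower (24.0%). Cxcl2, a neutrophil attractant, stood at 14353 and 14894 CPM in neutrophil-like and 3357 and 3033 CPM in C1q macrophage-like cells, the classes that carried Il1b. The 4 largest ratios were Ptgs2, which encodes the prostaglandin enzyme COX-2, in CD8 T-like cells (50.6 to 1.93 CPM) and B cell-like cells (49.95 to 6.69 CPM), Cxcl3 in cDC2-like cells (14.2 to 115 CPM) and Ccl2 in neutrophil-like cells (33.7 to 4.36 CPM). Of the 16 lower pairs 10 lay in B, T and NK cell-like classes, and Ptgs2 is itself high in neutrophil-like cells, at 1522 and 1049 CPM. Of 9 genes known as targets of IL-33 or IL-18, 28 pairs were compared, with 4 higher and 2 lower (21.4%). Gzmb, a cytotoxic granule protease, was higher with tamoxifen in CD4 T-like (6.12 to 31.3 CPM) and CD8 T-like cells (53.04 to 149.6 CPM), and Areg, a growth factor, in CD4 T-like cells (16.8 to 40.3 CPM). In NK-like cells Areg went the other way (19.1 to 7.93 CPM). Il5 and Il13, cytokines of ILC2, stood at 135 and 382 CPM in ILC2-like cells with vehicle, where Il1rl1 was highest, but both served as markers of that class. The class medians of the log2 ratio ran from -2.17 to 0.02 for the IL-1 targets, -0.92 to 0.91 for those of IL-33 or IL-18, -0.34 to 0.06 for signalling, -0.26 to 0.24 for processing and -2.36 to 0.40 for other family genes, against -0.13 to 0.06 over all features. After depletion, over 2 classes, 3.26% of 18065 feature and class pairs were apart. Among 17 target pairs there, 1 was higher and 3 were lower, all in endothelial-like cells. Ptgs2 was higher, from 0 to 27 UMIs, and Sele (128 to 45.1 CPM), Il6 (35.9 to 9.49 CPM) and Cxcl2 (13.4 to 5.93 CPM) were lower. Before depletion Sele was also lower in these cells, 85.6 to 28.7 CPM, whereas Cxcl2 was higher, 23.2 to 76.2 CPM. Of the other lists, 0 of 31 signalling pairs, 1 of 11 processing pairs (Nlrc4) and 0 of 3 pairs of IL-33 or IL-18 targets were apart.

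Across 20 classes with 50 cells or more before depletion, the 3 genes with the pattern most alike were found for each member among 13438 genes, by Pearson r of log2(mean CPM + 1). The classes share libraries and free RNA, so r is a description. Il1a was most like Il1rn (0.93), Fcgr3 (0.91) and Gm6209 (0.91), so another of the 10 genes led its list. Il1b was most like Clec5a (0.96), Cd14 (0.95) and Igsf6 (0.95), and Il1rn most like Gm6209 (0.96), Hcar2 (0.96) and Clec4d (0.96). Il1r2 was most like Gm16894 (0.93), Cass4 (0.92) and Gm14455 (0.87), and Il1rap most like Gm14963 (0.87), Gpr84 (0.86) and Gm28981 (0.86). For the ligands of resident cells, Il18 was most like Ear1 (0.89), Ear10 (0.89) and Kcnip4 (0.89), and Il33 most like Rab38 (0.94), Mme (0.93) and Pi4k2b (0.91). For the other receptors, Il1r1 was most like Asap3 (0.87), Plat (0.87) and Lrrc8a (0.84), Il18r1 most like Txk (0.87), Atp8a2 (0.87) and Gm34086 (0.87) and Il1rl1 most like Pcsk1 (0.88), 9230102O04Rik (0.86) and Gm43057 (0.83). Genes beside Il18 included Ear1, which is also among the markers used to name alveolar macrophage-like cells.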

How the data were processed

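The authors deposited UMI counts per gene and cell from 10x 3′ v3 libraries (UMIs are molecular tags that let copies of 1 molecule be counted once), as filtered tables with no annotation of cells. Per the file headers they were made with Cell Ranger 7.0.1, whereas the submitters' processing notes name Cell Ranger 7.2.0 and the build mm10. The annotation release and the use of intronic and strand information are not given in the sources used here. The vehicle is called ethanol in one place and corn oil in another, and 1 further allele of the genotype label is not reported here.

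Cells needed 200 genes and at most 20% mitochondrial UMIs. Doublets were scored with Scrublet in scanpy 1.11.5 (python 3.11.15) and removed above a fixed score of 0.25, set after the automatic threshold marked 0 or 1 cells in the depleted libraries: 122 to 216 cells per library were removed. The remaining cells were clustered together (2000 variable genes without the 10 genes and their pathway lists, 40 components, 15 neighbours, Leiden resolution 1) and named from marker lists. Counts were summed per class and library and given as CPM, with exact Poisson intervals, exact conditional binomial intervals for ratios and Clopper-Pearson intervals for shares, at 95%. With 1 library per group, no test was made. Classes needed 50 cells for a level and 100 cells in both libraries for a ratio. Shares of cells were also taken after thinning to 2000 UMIs. The calling rule was checked on Poisson counts simulated from the sums of C1q macrophage-like cells. That check does not cover smaller classes or genes whose UMIs sit in few cells. Scaling alternatives used edgeR 4.0.16 and DESeq2 1.42.0.

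The genes, lists and comparisons were chosen with earlier results of these data known. All 10 genes are named, and of each pathway list up to 4 genes apart with the largest ratio, and for likeness the 3 genes of highest r. The other pathway genes given only as levels were chosen after their values were seen.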

Additional observations from a re-analysis of the deposited data

How the results depend on the processing

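No paired analysis was possible because each group has 1 library. The count of gene and class pairs apart before depletion, 15, stayed at 15 with TMM factors, with median of ratios factors and with a pseudocount of 0.1 CPM. All 15 were lower with tamoxifen under each of these. It was 12 when cells needed 1000 genes, all lower, and 10 with the mean of each cell's CPM (4 higher, 6 lower). It moved to 26 with no minimum level (4 higher, 22 lower), 8 without doublet removal, all lower, and 9 at clustering resolution 2 (2 higher, 7 lower). With settings added after the data were seen, it was 5 without cells holding neutrophil or macrophage markers (1 higher, 4 lower) and 29 with classes of 20 cells (3 higher, 26 lower). In epithelial-like cells the count apart in both pairs was 0 in the main analysis and in each of 8 alternatives. Among 76 log2 ratios, 550 recomputed values kept their place and 69 moved by more than their counting interval. Another 13 changed sign, counted only for ratios that were apart in the main analysis. A sign change of any other ratio was not counted as such. The 13 include Il1b in CD4 T-like cells (0.0069 with 1000 genes, 0.11 without doublet removal, 0.20 at resolution 2 and 0.11 without marker cells). They also include Il1b in CD8 T-like cells (0.19 with the mean over cells and 0.40 without marker cells) and Il1rn in CD8 T-like cells (0.41 without marker cells). In B cell-like cells at resolution 2, Il1a turned to 0.47, Il1b to 1.02, Il1rn to 1.39 and Il1r2 to 0.15, and without marker cells Il1a turned to 0.35 and Il1rn to 1.53. Of each gene's UMIs, the leading class held a similar share except for Il1b in C1q macrophage-like cells (38.6%, and 39.6% with 1000 genes or 33.5% without doublet removal), Il18 in alveolar macrophage-like cells (82.5%, and 78.6% without doublet removal) and Il33 in epithelial-like cells (91.4%, and 88.4% without it). The cause was not tested. Median of ratios factors shifted all log2 ratios of neutrophil-like cells by -0.11, more than in any other class. Classes under 100 cells, such as Treg-like cells, are limited by counting error, and the number of animals behind each library bounds all comparisons.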
